A study of Caenorhabditis elegans with 12 samples.

Results

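The genes described are 10 cuticle collagens of *C. elegans* whose mutants are known for their body shape: *dpy-4*, *dpy-5*, *dpy-13*, *dpy-17*, *sqt-1*, *sqt-3*, *rol-6*, *bli-1*, *bli-2* and *lon-3*. They were taken by name, not by level, from the 46761 genes of the RNA-seq values, and each name matched 1 gene identifier. Of the 10 members, 9 passed the filter on low values that left 14199 genes for testing, which asked for 3 or more libraries with an FPKM (fragments per kilobase of transcript, scaled to the mapped reads of the library) of 1 or more. The exception was *bli-1*, which is described by its values alone. The question for each member was whether its level in young adults differed from wild-type in mutants of the developmental timing genes *lin-29* and *mab-10* and of the helicase gene *ddx-23*.

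RNA came from whole, age-synchronized young adult hermaphrodites of 4 strains, with 3 libraries per strain. The mutant strains carried allele n5705 of *ddx-23*, allele tm2497 of *mab-10* or allele n836 of *lin-29*. All strains also carried the transgene maIs105 with the *col-19::gfp* reporter, so the wild-type is the reporter strain and not the plain laboratory strain. LIN-29 is a zinc-finger transcription factor of the EGR family that ends larval development of the hypodermis, MAB-10 is its NAB co-factor, and DDX-23 is a DEAD-box RNA helicase. Each mutant was 1 strain with 1 allele of the named gene. The libraries of a strain were from separate populations of animals, according to the methods of the study. In RNA of whole animals, fewer cells of a type and less RNA per cell cannot be told apart.

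The cuticle of *C. elegans* is a layered exoskeleton made mostly of collagens, which the hypodermis secretes anew at each larval molt and for the adult. Cuticle collagen genes are transcribed in waves during each molting cycle, some early and some late. Mutations in single collagen genes change the shape of the whole animal. Dumpy (Dpy) animals are short and fat, Roller (Rol) animals are helically twisted and roll as they move, Squat (Sqt) alleles can give either of these shapes, Blister (Bli) animals have fluid-filled swellings of the adult cuticle, and Long (Lon) animals are longer than wild-type. A separate set of collagens, *dpy-2*, *dpy-3*, *dpy-7*, *dpy-8*, *dpy-9* and *dpy-10*, forms or shapes the annular furrows, and none of the 10 members belongs to it.

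By the WBcel235 annotation, the members lie on 5 chromosomes and do not form a cluster. On chromosome II are *sqt-1* (11336693 to 11337837, minus strand), *rol-6* (8733050 to 8734239, plus), *bli-1* (10708960 to 10712156, plus) and *bli-2* (5651394 to 5652434, minus). Chromosome IV holds *dpy-4* (14985543 to 14986784, minus) and *dpy-13* (4235614 to 4236710, plus), and chromosome V holds *sqt-3* (12352745 to 12354320, plus) and *lon-3* (12197437 to 12198645, minus). The other two members are *dpy-5* on chromosome I (5432197 to 5433051, minus) and *dpy-17* on chromosome III (5107330 to 5108492, plus). The coding sequences are short, with 284 codons in *dpy-5* to 352 in *dpy-17*, apart from the 948 codons of *bli-1*. The number of exons ranged from 1 in *dpy-5* to 5 in *bli-1*.

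Some members overlap other genes, and whether the counting used strand is not given in the sources used here. The whole of *bli-1*, *bli-2* and *lon-3* lies within a gene of the opposite strand. These genes are *dph-2*, *zyg-1* and *ogdh-2*, whose levels varied little, between 4.74 and 5.62 in log2(FPKM+1) over the 12 libraries. The whole of *dpy-4* lies within *atln-2*, also on the opposite strand, which was low in all libraries, between 0.40 and 2.51. No member had values identical to those of another gene.

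The deposited level of a gene in a library is log2(FPKM+1), in which an FPKM of 1 is a value of 1. A difference on this scale understates the fold change of a gene with low levels. The FPKM of a library summed to between 1038344 and 1130220, and the number of reads is unknown. The libraries carry numbers, and they were divided with the values in view into an earlier series (up to 3244) and a later series (from 3248). All 3 *ddx-23* libraries, replicate 1 of each of the other mutants and replicates 1 and 2 of wild-type fell in the earlier series, and the remaining 5 libraries in the later one. When the limma model also held the series, 25.2% of all tested genes had higher and 8.12% had lower values in later libraries at an adjusted p under 0.05. No *ddx-23* library is in the later series. Within a series some groups have a lone library, namely *lin-29* and *mab-10* in the earlier and wild-type in the later one. In fits of 1 series such a library is assumed to vary like the other groups, so a p of these fits holds no replicate check of that group, and they are given as values beside the fits of all libraries. In the mutants, the transcripts of the mutated genes were not lower than in wild-type: *lin-29* lay between 2.85 and 3.27 in *lin-29* mutants and between 1.90 and 2.13 in wild-type, *mab-10* between 2.67 and 3.15 in its mutants against 2.03 to 2.72, and *ddx-23* between 6.04 and 6.20 against 5.68 to 5.75. A gene-level value does not show whether an allele is present, so it checks no label.

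The 10 collagens did not behave as a block. Of the 9 tested members, 8 fell into 3 patterns, and *bli-2* was in none of them. The Dpy collagens *dpy-4*, *dpy-5* and *dpy-13* were higher in both *lin-29* and *ddx-23* mutants, from means of 5.42 to 8.34 FPKM in wild-type to means of 475 to 839 FPKM in *lin-29* and 150 to 268 FPKM in *ddx-23* mutants. The collagens *sqt-1*, *rol-6* and *lon-3* were higher in *lin-29* mutants, from means of 0.763 to 2.13 FPKM to means of 41.6 to 102 FPKM, and were not called in the other two mutants. The partners *dpy-17* and *sqt-3* were higher in the later libraries of each genotype that has such libraries. Their means were highest in *mab-10* and *lin-29* and lowest in *ddx-23* mutants. The strut collagens *bli-1* and *bli-2* were low throughout, with log2(FPKM+1) of at most 2.73 in any library.

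In *lin-29* mutants, 7 of the 9 tested members were higher than in wild-type and 0 were lower at an adjusted p under 0.05 (limma, Benjamini-Hochberg over all tested genes), where 16.3% of all tested genes were higher and 2.73% lower. These background shares depended on the scaling, at 13.1% higher and 8.2% lower with the median ratio and 9.74% higher and 13.7% lower with quantile normalization. With 1 library left out the higher share ran from 9.04% without *lin-29* replicate 3 to 25.5% without wild-type replicate 3. The median difference of the members was 5.12 on the log2 scale, against 0.19 for all tested genes. In *ddx-23* mutants, 3 of 9 were higher and 0 lower, where 7.17% of all tested genes were higher and 1.46% lower. Leaving out wild-type replicate 2 gave a higher share of 3.63%, and leaving out wild-type replicate 3 gave 11.6%. A model that also held the series gave 19% higher and 4.54% lower. The median difference of the members was -0.13 there, against 0.094 for all genes. In *mab-10* mutants, 0 of 9 were higher and 0 lower by limma, where 1.04% of all genes were higher and 0.232% lower. That background varied with the library left out. Leaving out wild-type replicate 3 raised the higher share to 13.3%, leaving out *mab-10* replicate 1 raised it to 10.5%, and dropping wild-type replicate 2 lowered it to 0.296%. Without wild-type replicate 3, wild-type has earlier libraries alone. Without *mab-10* replicate 1, *mab-10* mutants have later ones alone. In these fits the single library and the series cannot be told apart. The higher share was 5.48% when the series was a term. Without adjustment, 2 members passed 0.05 in *mab-10* mutants by limma, *dpy-17* and *sqt-3*, both with the higher mean in the mutant. In *ddx-23* mutants, 2 members passed 0.05 with the lower mean without adjustment, and these were again *dpy-17* and *sqt-3*. In *lin-29* mutants 0 members passed it with the lower mean. The share of all tested genes at the unadjusted threshold is not given. Counts without adjustment, here and below, thus have no background beside them and are description only. The 3 comparisons share the wild-type libraries.

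**Figure D1:**
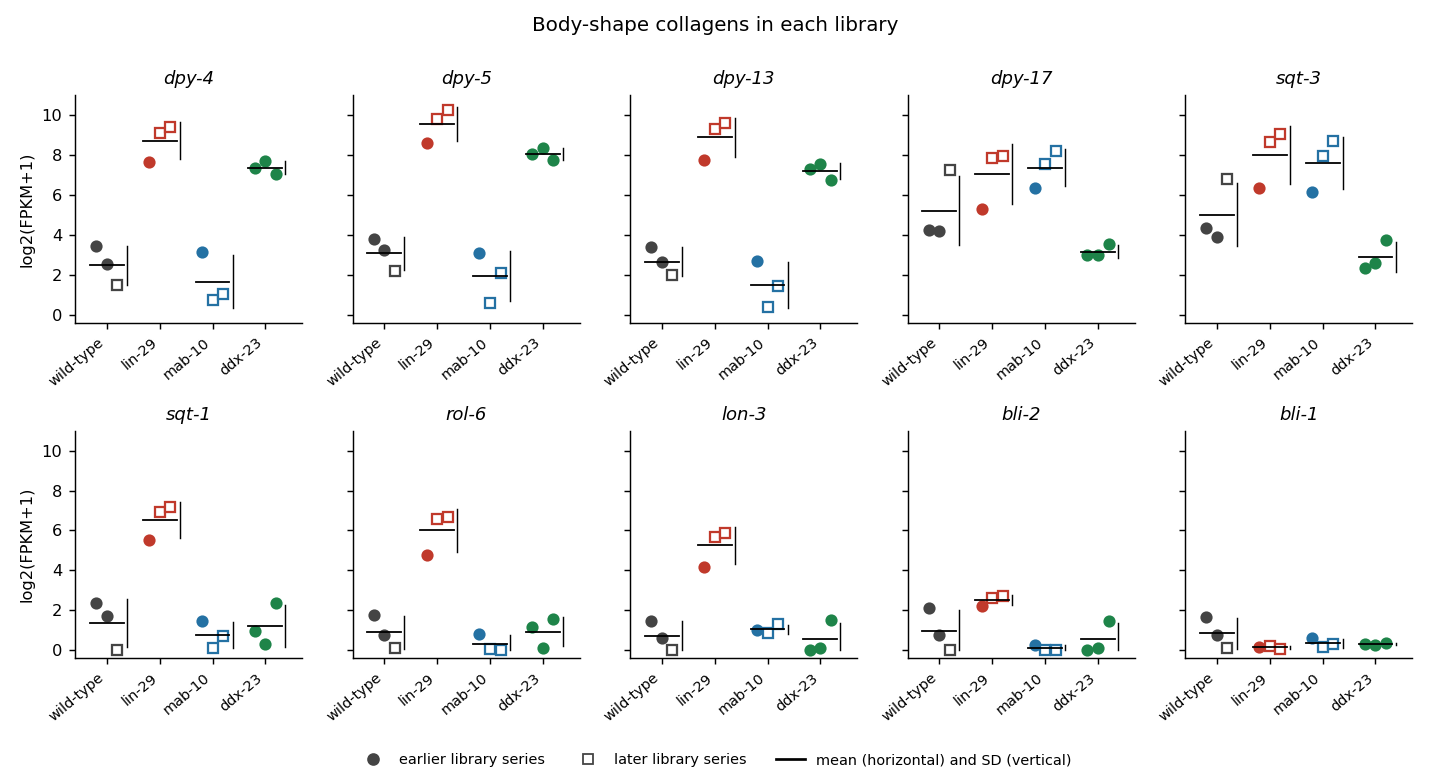
Level of each of the 10 collagens in the 12 libraries, with log2(FPKM+1) on the vertical axis and the genotype on the horizontal axis; filled circles are libraries of the earlier series, open squares those of the later series, horizontal lines means and vertical lines SD (n = 3). For *dpy-4*, *dpy-5* and *dpy-13* all libraries of *lin-29* and *ddx-23* mutants sit at 6.75 or above and those of wild-type and *mab-10* mutants at 3.80 or below.

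The 3 Dpy collagens of the first pattern are structural cuticle collagens, and their mutants are short and fat. For *dpy-5* (WBGene00001067), log2(FPKM+1) was 3.80, 3.25 and 2.18 in wild-type, 8.62, 9.83 and 10.25 in *lin-29* mutants, 3.09, 0.60 and 2.11 in *mab-10* mutants, with 8.07, 8.34 and 7.74 in *ddx-23* mutants, in the order of replicates 1, 2 and 3. For *dpy-4* (WBGene00001066), the values were 3.43, 2.52 and 1.47 in wild-type, 7.66, 9.10 and 9.40 in *lin-29* mutants, 3.16, 0.71 and 1.04 in *mab-10* mutants, with 7.37, 7.69 and 7.05 in *ddx-23* mutants. For *dpy-13* (WBGene00001074), they were 3.40, 2.62 and 1.97 in wild-type, 7.76, 9.31 and 9.61 in *lin-29* mutants, 2.67, 0.37 and 1.45 in *mab-10* mutants, with 7.33, 7.54 and 6.75 in *ddx-23* mutants. For each of the 3 genes, all libraries of *lin-29* and of *ddx-23* mutants were above all those of wild-type and of *mab-10* mutants, and wild-type and *mab-10* mutants overlapped.

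In FPKM, which allows genes to be compared, *dpy-5* was the most abundant of the 10 members in both mutants, with 839 ± 415 FPKM (SD, n = 3) in *lin-29* and 268 ± 54.8 FPKM in *ddx-23* mutants, against 8.34 ± 4.73 FPKM in wild-type. In *lin-29* mutants its range overlapped that of the next member, *dpy-13*, with 543 ± 293 FPKM, and that of *dpy-4*, with 475 ± 246 FPKM. In *ddx-23* mutants *dpy-5* stood above *dpy-4*, with 167 ± 36.8 FPKM, without overlap, and *dpy-4* overlapped *dpy-13*, with 150 ± 39.8 FPKM. All 3 genes then stood above the fourth member, *dpy-17*, at 8.12 ± 2.12 FPKM.

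The increase of *dpy-5* in *lin-29* mutants was 6.49 on the log2 scale (SE 0.61, adjusted p = 5.61e-05, limma). Those of *dpy-4* and *dpy-13* were 6.25 (SE 0.68, adjusted p = 1.34e-04, limma) and 6.23 (SE 0.61, adjusted p = 6.8e-05, limma). In *ddx-23* mutants the increases were 4.97 for *dpy-5* (SE 0.61, adjusted p = 6.43e-04), 4.90 for *dpy-4* (SE 0.68, adjusted p = 0.00127) and 4.54 for *dpy-13* (SE 0.61, adjusted p = 0.0011), again by limma. In *mab-10* mutants the 3 genes had differences of -1.14, -0.83 and -1.17, in the same order, with adjusted p of 0.304, 0.491 and 0.291. These 6 increases were called in all alternatives that gave them a value. Within the earlier series the differences of the 3 genes were 4.68 to 5.09 in the 1 *lin-29* library and 4.20 to 4.52 in *ddx-23* mutants, and within the later series 7.49 to 7.86 in *lin-29* mutants, against 1 wild-type library. Among the wild-type and the *mab-10* libraries the later ones were the lower, while among the *lin-29* libraries the later ones were the higher.

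The contrast of *mab-10* with *ddx-23* mutants was tested directly, and all 3 Dpy collagens were lower in *mab-10* mutants, with differences of -6.12 for *dpy-5* (adjusted p = 2.66e-04, limma), -5.73 for *dpy-4* (adjusted p = 7.46e-04) and -5.71 for *dpy-13* (adjusted p = 3.99e-04). Between *lin-29* and *ddx-23* mutants the means differed by 1.52 for *dpy-5* (SE 0.61, adjusted p = 0.103, limma), 1.35 for *dpy-4* (SE 0.68, adjusted p = 0.177) and 1.69 for *dpy-13* (SE 0.61, adjusted p = 0.0719), with *lin-29* mutants higher. These 3 differences missed the threshold, which does not show that the levels were alike. For *dpy-5* and *dpy-13* the call was made under 3 and 4 of the 24 alternatives.

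The next members are the collagens of the Rol and Sqt phenotypes. Particular alleles of *rol-6* and *sqt-1* give helically twisted animals, and a dominant *rol-6* allele is a widely used marker of transgenic worms. For *sqt-1* (WBGene00005016), log2(FPKM+1) was 2.37, 1.69 and 0.00 in wild-type, 5.51, 6.93 and 7.15 in *lin-29* mutants, 1.44, 0.12 and 0.70 in *mab-10* mutants, with 0.98, 0.31 and 2.37 in *ddx-23* mutants. For *rol-6* (WBGene00004397), it was 1.77, 0.76 and 0.12 in wild-type, 4.75, 6.56 and 6.69 in *lin-29* mutants, 0.81, 0.03 and 0.00 in *mab-10* mutants, with 1.14, 0.10 and 1.55 in *ddx-23* mutants. The 3 *lin-29* libraries were above all 9 others for both genes, and the other 3 genotypes overlapped. The collagen *lon-3* acts in the opposite direction on body length, since animals that lack it are long. Its values (WBGene00003057) were 1.48, 0.58 and 0.00 in wild-type, 4.18, 5.68 and 5.87 in *lin-29* mutants, 0.993, 0.856 and 1.304 in *mab-10* mutants, with 0.00, 0.10 and 1.51 in *ddx-23* mutants. Here too the *lin-29* libraries stood above all others, so a collagen whose loss lengthens the animal and collagens whose mutants are twisted or shortened were higher in the same mutant.

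The increase in *lin-29* mutants was 5.18 for *sqt-1* (SE 0.70, adjusted p = 5.06e-04, limma), 5.12 for *rol-6* (SE 0.59, adjusted p = 1.85e-04) and 4.56 for *lon-3* (SE 0.54, adjusted p = 2.15e-04). In *ddx-23* mutants the differences from wild-type were -0.13, 0.05 and -0.15, with adjusted p from 0.911 to 0.978, and in *mab-10* mutants they were -0.60, -0.60 and 0.36, with adjusted p from 0.573 to 0.724. The contrast of *lin-29* with *ddx-23* mutants was called for all 3 genes, at 5.31 for *sqt-1* (adjusted p = 4.73e-04, limma), 5.07 for *rol-6* (adjusted p = 2.15e-04) and 4.71 for *lon-3* (adjusted p = 1.98e-04). The contrast of *lin-29* with *mab-10* mutants was also called, at 5.78 for *sqt-1* (adjusted p = 4.41e-04), 5.72 for *rol-6* (adjusted p = 1.6e-04) and 4.19 for *lon-3* (adjusted p = 6.23e-04). Within the earlier series, where *lin-29* and *mab-10* have 1 library each, the difference between *lin-29* mutants and wild-type was 3.48 for *sqt-1*, 3.48 for *rol-6* and 3.15 for *lon-3*. Their adjusted p ran from 0.0179 to 0.0408 by limma, with the spread taken from wild-type and *ddx-23* mutants, so they are no replicate check of *lin-29*. The contrast of the lone *lin-29* with the lone *mab-10* library of that series had an adjusted p of 0.0596 for *sqt-1* (4.07) and 0.0634 for *lon-3* (3.19).

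**Figure D2:**
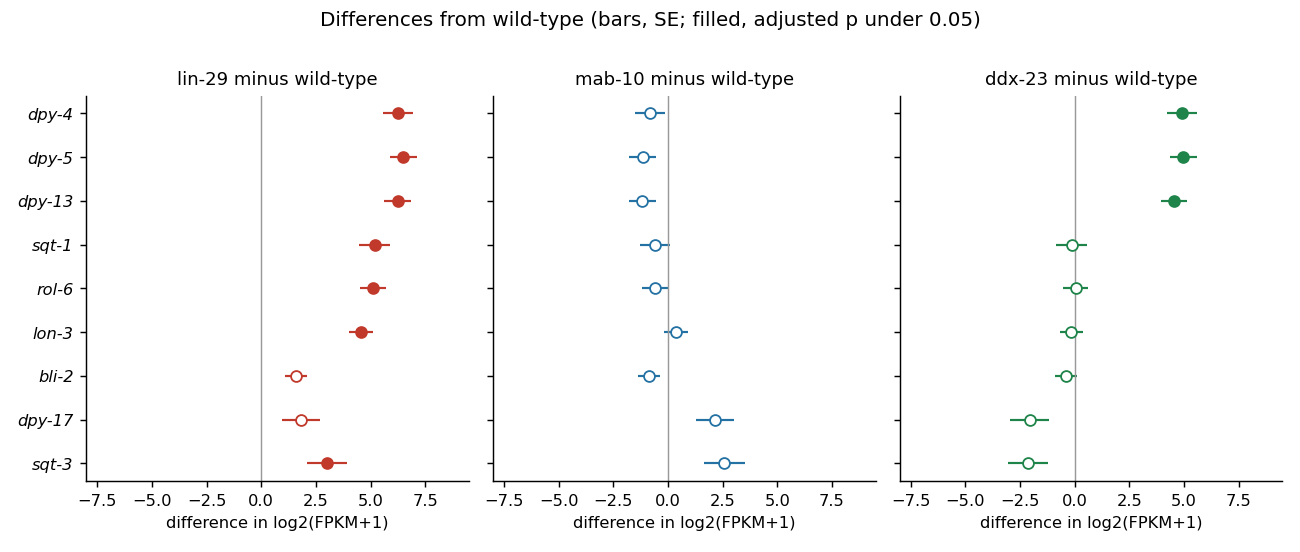
Difference of each mutant from wild-type in log2(FPKM+1) on the horizontal axis for the 9 tested collagens, in 1 panel per mutant; bars are SE and filled points passed an adjusted p of 0.05 in limma. All 7 filled points of *lin-29* and all 3 of *ddx-23* lie to the right of 0, and *mab-10* has none.

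The third pattern was that of *dpy-17* and *sqt-3*. Mutations of either gene shorten the animal, and the 2 collagens are known as partners in the assembly of the cuticle. For *dpy-17* (WBGene00001076), log2(FPKM+1) was 4.26, 4.18 and 7.23 in wild-type, 5.30, 7.86 and 7.96 in *lin-29* mutants, 6.36, 7.56 and 8.21 in *mab-10* mutants, with 2.98, 2.98 and 3.53 in *ddx-23* mutants. For *sqt-3* (WBGene00005018), it was 4.36, 3.89 and 6.81 in wild-type, 6.36, 8.66 and 9.05 in *lin-29* mutants, 6.14, 7.97 and 8.70 in *mab-10* mutants, with 2.36, 2.60 and 3.75 in *ddx-23* mutants. In each genotype with later libraries, those libraries were the highest for both genes, and wild-type replicate 3 stood within the range of the *lin-29* and *mab-10* libraries. All *ddx-23* libraries were below all those of the other 3 genotypes, for both genes.

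When the model also held the library series, the later libraries were higher by 2.38 for *dpy-17* (SE 0.26, adjusted p = 3.11e-04, limma) and by 2.46 for *sqt-3* (SE 0.30, adjusted p = 5.73e-04). For none of the other 7 tested members was the series term called, with adjusted p from 0.395 to 0.983. Since the series were divided with the values in view, these tests are not independent of the division. Without the series, *sqt-3* was higher in *lin-29* mutants by 3.01 (SE 0.92, adjusted p = 0.0436, limma) and *dpy-17* had a difference of 1.82 that was not called (SE 0.88, adjusted p = 0.172). The call of *sqt-3* was lost under 12 of 25 alternatives, among them the fits that left out wild-type replicate 1 or 2, replicate 2 or 3 of *lin-29*, replicate 2 of *mab-10* or any of the *ddx-23* libraries, and over all alternatives its adjusted p ran from 0.00225 to 0.167. In *mab-10* mutants the differences were 2.15 for *dpy-17* (adjusted p = 0.208) and 2.58 for *sqt-3* (adjusted p = 0.168). In *ddx-23* mutants they were -2.06 (adjusted p = 0.187) and -2.12 (adjusted p = 0.195).

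Taking the series into account changed these calls. With the series as a term, *dpy-17* was higher by 1.03 in *lin-29* (adjusted p = 0.0407, limma) and by 1.36 in *mab-10* mutants (adjusted p = 0.0361), and lower in *ddx-23* mutants, at -1.27 (adjusted p = 0.0174). For *sqt-3* the same model gave 2.19 in *lin-29* (adjusted p = 0.00225), 1.76 in *mab-10* (adjusted p = 0.0264) and -1.298 in *ddx-23* mutants (adjusted p = 0.0312). Each of these 6 calls had the direction of the difference without the term, which rests on the same libraries. Of all tested genes, this model called 20.2% higher in *lin-29* and 5.48% higher in *mab-10*, and 4.54% lower in *ddx-23* mutants. For the differences from wild-type, the SE with the term was 0.31 for *dpy-17* and 0.36 for *sqt-3*, against 0.88 and 0.92 without it. Since the division into series was made with the values in view, the 6 calls are no independent check of these differences. Within the earlier series, *dpy-17* had differences of 1.08 in the lone *lin-29* and 2.14 in the lone *mab-10* library, with adjusted p of 0.0256 and 0.00509 by limma that rest on the spread of the other genotypes. In the 3 *ddx-23* libraries against 2 of wild-type it was lower, at -1.06 (adjusted p = 0.00704). For *sqt-3* the differences there were 2.23, 2.01 and -1.22, none of them called (adjusted p = 0.0513, 0.0884 and 0.0889). Within the later series, where 1 wild-type library stands for its group, the difference of *sqt-3* in *lin-29* mutants was 2.05 (adjusted p = 0.0145, limma, on the spread of the mutants), and *dpy-17* had differences of 0.68 in *lin-29* and 0.65 in *mab-10* mutants that were not called. Leaving out wild-type replicate 3 gave calls for both genes in *mab-10* mutants.

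Between mutants, *dpy-17* was higher in *lin-29* than in *ddx-23* mutants by 3.88 (SE 0.88, adjusted p = 0.0107, limma) and higher in *mab-10* than in *ddx-23* mutants by 4.21 (adjusted p = 0.0177). The corresponding differences of *sqt-3* were 5.12 (adjusted p = 0.0032) and 4.70 (adjusted p = 0.0132). Since all *ddx-23* libraries are of the earlier series, these contrasts moved with it. When the series was a term, those of *dpy-17* were 2.29 (adjusted p = 0.00151, limma) and 2.63 (adjusted p = 0.00186), and those of *sqt-3* were 3.48 (adjusted p = 3.86e-04) and 3.06 (adjusted p = 0.00202). Leaving out *lin-29* replicate 2 or 3 ended the call of *dpy-17* between *lin-29* and *ddx-23* mutants (adjusted p = 0.0504 and 0.0524). The calls between *mab-10* and *ddx-23* mutants ended, for both genes, without *mab-10* replicate 3, *ddx-23* replicate 1 or *ddx-23* replicate 2, and for *dpy-17* also without *mab-10* replicate 2, with adjusted p up to 0.0751. Between *lin-29* and *mab-10* mutants the differences were -0.33 for *dpy-17* (SE 0.88, adjusted p = 0.865) and 0.42 for *sqt-3* (SE 0.92, adjusted p = 0.831). In wild-type and *mab-10* mutants these 2 genes were the most abundant members. Their means were 61.5 ± 75.9 and 48.1 ± 54.5 FPKM (SD, n = 3) in wild-type and 188 ± 107 and 244 ± 173 FPKM in *mab-10* mutants, for *dpy-17* and *sqt-3*, and in both genotypes all their libraries were above those of the next member, *dpy-5*.

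**Figure D3:**
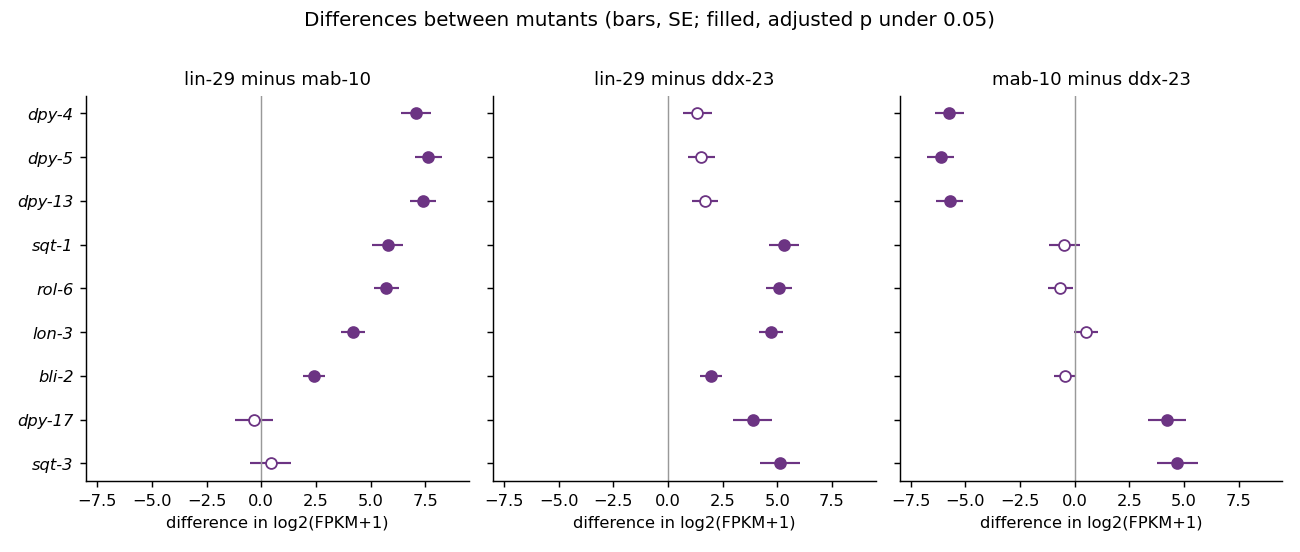
Differences between mutants in log2(FPKM+1) on the horizontal axis for the 9 tested collagens, with SE as bars and filled points for an adjusted p under 0.05 in limma. *dpy-4*, *dpy-5* and *dpy-13* are filled where *mab-10* is compared and open between *lin-29* and *ddx-23*, while *dpy-17* and *sqt-3* are filled in both comparisons with *ddx-23* and open between *lin-29* and *mab-10*.

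Counted over the members, 7 of 9 were higher in *lin-29* than in *mab-10* mutants and 0 lower, where 7.28% of all tested genes were higher and 2.13% lower. Between *lin-29* and *ddx-23* mutants 6 of 9 were higher in *lin-29* and 0 lower, where 14.2% of all genes were higher and 6.99% lower. Of the 9, 2 were higher in *mab-10* than in *ddx-23* mutants and 3 lower, where 3.19% of all genes were higher and 4.89% lower. Counted by libraries that do not overlap, 7 of 9 members had all *lin-29* libraries above all wild-type libraries, against 24.1% of all tested genes, and these were *dpy-4*, *dpy-5*, *dpy-13*, *sqt-1*, *rol-6*, *bli-2* and *lon-3*. The reverse held for 0 of 9, against 5.71% of all genes. In *ddx-23* mutants 3 of 9 lay above wild-type without overlap, against 24.1% of all genes, and 2 of 9, *dpy-17* and *sqt-3*, lay below, against 9.35%. In *mab-10* mutants 0 of 9 lay above, against 14.8% of all genes, and 0 of 9 below, against 3.23%. The counts of members higher in *lin-29* libraries in this paragraph include *bli-2*, which passed the filter only through its level in those libraries.

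The Bli collagens BLI-1 and BLI-2 are parts of the struts that join the layers of the adult cuticle. For *bli-2* (WBGene00000252), log2(FPKM+1) was 2.08, 0.73 and 0.00 in wild-type, 2.22, 2.60 and 2.73 in *lin-29* mutants, 0.28, 0.00 and 0.00 in *mab-10* mutants, with 0.00, 0.11 and 1.48 in *ddx-23* mutants. The *lin-29* libraries were the 3 highest, the lowest of them just above wild-type replicate 1. An FPKM of 1 was reached in 3 *lin-29* libraries, 1 wild-type library, 1 *ddx-23* library and 0 *mab-10* libraries. The gene thus passed the filter only through its level in *lin-29* mutants. Its calls for *lin-29*, and its place in counts of members, are therefore no independent support. The difference from wild-type in *lin-29* mutants was 1.58 (SE 0.50, adjusted p = 0.0501, limma), just short of the threshold, and it was called under 5 of 23 alternatives. Against *mab-10* mutants *bli-2* was higher in *lin-29* mutants by 2.42 (adjusted p = 0.0119) and against *ddx-23* mutants by 1.99 (adjusted p = 0.0179). The first of these calls was lost without *lin-29* replicate 2 or 3 and in the earlier series alone. The second was lost in those fits, without *ddx-23* replicate 1 or 2, with quantile normalization and with 0.1 in place of 1 added to the FPKM. For *bli-1* (WBGene00000251) the values were 1.64, 0.77 and 0.11 in wild-type, 0.15, 0.21 and 0.04 in *lin-29* mutants, 0.58, 0.14 and 0.32 in *mab-10* mutants, with 0.31, 0.25 and 0.34 in *ddx-23* mutants. Only wild-type replicate 1 reached an FPKM of 1, and *bli-1* was not tested. The 2 strut collagens were therefore the least abundant members in *lin-29* mutants, at 4.78 ± 1.02 FPKM for *bli-2* and 0.10 ± 0.066 FPKM for *bli-1* (SD, n = 3), where *lon-3*, the next above, had 41.6 ± 21.5 FPKM.

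Summed over the 10 members, the collagens took 0.0927% to 0.348% of all FPKM in *lin-29*, 0.0451% to 0.0672% in *ddx-23*, 0.0164% to 0.0665% in *mab-10* and 0.0049% to 0.0259% in wild-type libraries. All *lin-29* and all *ddx-23* libraries were above all wild-type libraries, and *mab-10* overlapped both wild-type and *ddx-23*. In wild-type replicates 2 and 3 and in *mab-10* mutants *dpy-17* and *sqt-3* made up most of the sum, and in *ddx-23* mutants *dpy-4*, *dpy-5* and *dpy-13* did.

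Correlations across the 12 libraries are given as a description over points that share genotype and series. The patterns were drawn from these same values, so the correlations are no check of them. The Pearson correlations of *dpy-4*, *dpy-5* and *dpy-13* with each other were 0.995 to 0.999. Those of *sqt-1* were 0.990 with *rol-6*, 0.973 with *lon-3* and 0.927 with *bli-2*, which is in none of the patterns. Between the first and second patterns, *dpy-4*, *dpy-5* and *dpy-13* had correlations of 0.623 to 0.762 with *sqt-1*, *rol-6* and *lon-3*. The correlation of *dpy-17* with *sqt-3* was 0.980, and that of either gene with the other 7 ran from -0.26 to 0.61.

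Other collagen genes named for body shape, outside the 10, were *rol-8*, *sqt-2*, *dpy-14* and *bli-6*. Of these 4, the *lin-29* mutants had 2 higher and 1 lower, the *ddx-23* mutants had 1 higher, and *mab-10* mutants had 0 called (1 higher and 1 lower without adjustment). The median differences of the 4 genes were 3.51, -0.25 and -0.69, in the same order. In *lin-29* mutants *rol-8* was higher by 5.23 (SE 0.68, adjusted p = 4.11e-04, limma) and *sqt-2* by 4.82 (SE 0.62, adjusted p = 3.91e-04). Neither was called in the other mutants, the pattern of *sqt-1* and *rol-6*. The values of *dpy-14* were 4.33, 4.28 and 7.11 in wild-type, 5.86, 8.19 and 8.24 in *lin-29* mutants, 6.28, 7.06 and 7.88 in *mab-10* mutants, with 2.56, 2.18 and 3.22 in *ddx-23* mutants. As for *dpy-17* and *sqt-3*, the *ddx-23* libraries were lowest and wild-type replicate 3 stood with the mutants, and the difference of *dpy-14* was called between *lin-29* and *ddx-23* (4.78, adjusted p = 0.00243) and between *mab-10* and *ddx-23* libraries (4.42, adjusted p = 0.00979). The collagen *bli-6* had the opposite direction in *lin-29* mutants. Its values were 3.20, 2.31 and 2.67 in wild-type, 0.21, 0.00 and 0.37 in *lin-29* mutants, 2.33, 0.80 and 0.28 in *mab-10* mutants, with 4.92, 4.05 and 4.38 in *ddx-23* mutants. It fell by 2.54 in *lin-29* (SE 0.46, adjusted p = 0.00318) and rose by 1.72 in *ddx-23* mutants (SE 0.46, adjusted p = 0.0427), a call that was lost with median-ratio scaling and with quantile normalization. With the series as a term, *dpy-14* was called higher in *lin-29* and lower in *ddx-23* mutants.

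**Figure D4:**
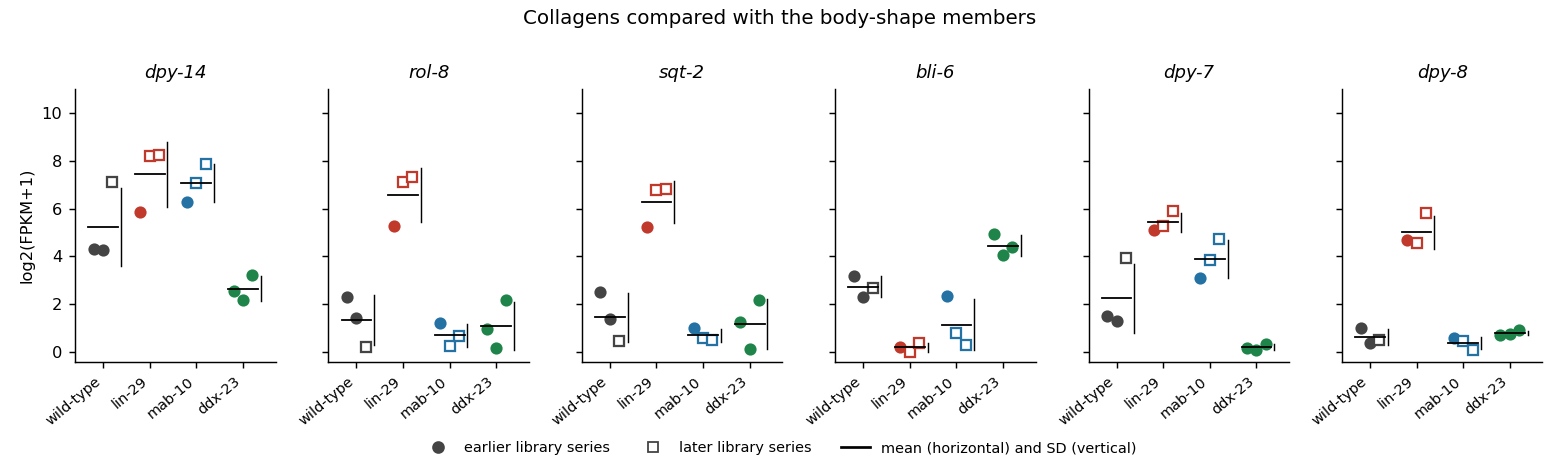
Level of 4 other collagens named for body shape and 2 furrow collagens in the 12 libraries, with log2(FPKM+1) on the vertical axis and the genotype on the horizontal axis; symbols, means and SD are as in the plot of the 10 members. *rol-8* and *sqt-2* are high in the *lin-29* libraries alone, *bli-6* is near 0 there, and *dpy-14* and *dpy-7* are lowest in the *ddx-23* libraries.

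The 6 furrow collagens are the other Dpy collagens to set beside the members. All 6 were higher in *lin-29* mutants, with a median difference of 3.14, among them *dpy-8* by 4.39 (SE 0.32, adjusted p = 8.9e-06, limma), *dpy-9* by 4.26 (SE 0.26, adjusted p = 2.85e-06) and *dpy-7* by 3.18 (SE 0.61, adjusted p = 0.00449). For *dpy-8* only the *lin-29* libraries reached an FPKM of 1. It thus passed the filter through them alone, and its calls for *lin-29* are no independent support. In *ddx-23* mutants 0 of 6 was called by limma in either direction, with a median of -0.86, and in *mab-10* mutants 0 of 6, with a median of 1.19. Without adjustment, 2 were lower in *ddx-23* and 3 higher in *mab-10* mutants. In *ddx-23* mutants *dpy-7* was called lower with median-ratio scaling, and *dpy-7* and *dpy-3*, named after its values were seen, with quantile normalization or the series as a term. Whether the lists differ was not tested. Between *lin-29* and *ddx-23* mutants all 6 furrow collagens were called, as were 6 of the 9 tested members, all but *dpy-4*, *dpy-5* and *dpy-13*.

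A collagen chain is modified by prolyl hydroxylases, cut from its precursor by proteases and linked to others by oxidases, and 13 genes of these steps were tested. Of these, 10 were higher in *lin-29* mutants and 0 lower, with a median difference of 1.02. The largest changes were those of *bli-5*, a Kunitz-type protease inhibitor (2.73, adjusted p = 4.64e-04, limma), *phy-2*, a prolyl 4-hydroxylase subunit (2.36, adjusted p = 0.0109), and *mlt-7*, a peroxidase (2.03, adjusted p = 3.67e-04). In *ddx-23* mutants 6 were higher and 0 lower, with a median of 0.39, but 2 were higher with median-ratio scaling, 1 with quantile normalization and 10 with the series as a term. The one called in all of these was *dpy-18*, the other main prolyl 4-hydroxylase subunit, higher by 2.32 (adjusted p = 0.00639). In *mab-10* mutants, where the median was 0.59, 1 was higher, the tetraspanin *tsp-15* of the cross-linking oxidase complex (1.27, adjusted p = 0.0453), and 1 was lower, *phy-3*, named after its values were seen, which fell by 0.90 (adjusted p = 0.0379). The call of *tsp-15* was lost with median-ratio scaling and with quantile normalization, and 6 of the 13 were higher with the series as a term. The C-terminal protease gene *dpy-31*, whose product is known to process SQT-3, was not called in *lin-29* mutants (0.53, adjusted p = 0.0785) and was higher in *ddx-23* mutants (0.86, adjusted p = 0.0194). The subtilisin-like protease gene *bli-4* had a difference of 0.23 in *lin-29* mutants (adjusted p = 0.0697) and was higher in *ddx-23* mutants by 0.39 (adjusted p = 0.0127). Both *dpy-31* and *bli-4* are named for their role, after their values were seen. In the DBL-1 pathway, the TGF-beta signal that sets body size, 3 of 12 genes were higher in *lin-29* mutants, 1 in *ddx-23* mutants and 0 in *mab-10* mutants, and 0 were lower in any. Of all tested genes, 16.3%, 7.17% and 1.04% were higher, in the same order. The medians were 0.57, 0.05 and 0.43, in the same order, and 2 genes were higher in *mab-10* mutants without adjustment. The genes called were among others the Smad genes *sma-4* in *lin-29* (0.96, adjusted p = 0.0175) and *sma-3* in *ddx-23* mutants (0.63, adjusted p = 0.0488). With quantile normalization 1 gene of this pathway was higher and 1 lower in *lin-29* mutants and 0 were called in *ddx-23* mutants.

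Genes of the molting cycle moved in *lin-29* mutants beside the collagens. Of 14, 11 were higher and 0 lower, with a median of 2.26, and *mlt-8*, *mlt-9* and *qua-1* had the largest differences (4.01, 3.63 and 3.40, adjusted p from 4.11e-04 to 0.00544, limma). In each of the other mutants 0 of 14 was called, with medians of 0.70 in *mab-10* and -0.37 in *ddx-23*. Without adjustment, 6 of the 14 were higher and 1 lower in *mab-10* and 3 were lower in *ddx-23* mutants. In *ddx-23* mutants 1 gene was called lower with median-ratio scaling or the series as a term and 2 with quantile normalization. Their summed level was 308 to 665 FPKM in *lin-29*, 142 to 206 in *mab-10*, 70.5 to 82.9 in *ddx-23* and 69.9 to 159 in wild-type libraries. The *ddx-23* libraries were thus within the range of wild-type in this sum. Of 3 adult collagens, *col-19* fell by 3.96 in *lin-29* mutants (adjusted p = 2.97e-04), and in *ddx-23* mutants *col-7* rose by 3.76 (adjusted p = 0.00395) and *col-62* by 3.35 (adjusted p = 3.97e-04), while in *mab-10* mutants 0 of the 3 was called (2 were lower without adjustment). There *col-62* was called lower with median-ratio scaling, and *col-7* and *col-62* with quantile normalization or the series as a term. In *ddx-23* mutants *col-19* was not called, with a mean of 9.11 in log2(FPKM+1) against 8.26 in wild-type. The endogenous *col-19* gene cannot be told apart from reporter transcripts that hold its sequence.

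Markers of the hypodermis, which makes the cuticle, were present in all libraries. Of 7 such genes, 3 were higher in *lin-29* mutants, 2 in *ddx-23* mutants and 1 in *mab-10* mutants, and 0 were lower in any, with medians of 0.96, 0.13 and 0.68. Of all tested genes, 16.3%, 7.17% and 1.04% were higher, in the same order. With quantile normalization the counts were 1, 2 and 0. Their summed level was 113 to 141 FPKM in wild-type, 154 to 183 in *lin-29*, 164 to 187 in *mab-10* and 155 to 159 in *ddx-23* libraries, and 0 of the 7 was at 0 in all libraries of a genotype. This sum was above all wild-type libraries in each of the 3 mutants. Of markers of other tissues, 3 of 8 for intestine were higher and 2 lower, 2 of 6 for body muscle and 3 of 5 tested for sperm were higher, and 1 of 8 for oocytes and germline was lower in *lin-29* mutants. In *ddx-23* mutants 1 intestine marker was lower and 1 each for body muscle and sperm was higher, and in *mab-10* mutants 0 of these was called, as was 0 of 5 for pharynx and 0 of 6 for neurons in any mutant. The series as a term changed this, with 3 pharynx and 5 neuron markers higher in *ddx-23* mutants, 3 pharynx markers in *lin-29* mutants, and 2 pharynx and 1 neuron marker in *mab-10* mutants, where 2 intestine markers were lower. Body muscle markers higher in *ddx-23* mutants were then 4, and 2 intestine markers were lower there. In that model 19% of all tested genes were higher in *ddx-23*, 20.2% in *lin-29* and 5.48% in *mab-10* mutants. With quantile normalization 1 neuron marker was higher in *ddx-23* and 1 lower in *lin-29* mutants, and with median-ratio scaling 3 markers of oocytes and germline were lower in *lin-29* mutants and 1 for intestine in *mab-10* mutants. Without adjustment, all 5 pharynx and 4 of the 6 neuron markers were higher in *mab-10* mutants, as were 3 of 6 for body muscle, while 3 of 8 for intestine were lower. The summed sperm markers were 121 to 189 FPKM in wild-type, 227 to 344 in *lin-29*, 80.1 to 171 in *mab-10* and 195 to 318 in *ddx-23* libraries. They were above all wild-type libraries in *lin-29* and *ddx-23* mutants, and *spe-38*, a sperm marker, was at 0 in all wild-type libraries. The part of the molting genes and markers in the collagen results was not tested.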

How the data were processed

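The authors used STAR 2.5.3a for mapping and RSEM 1.3.0 for quantification and deposited log2(FPKM+1) per gene and library. These log2 values were used as deposited, and an FPKM is 2 to the power of the value, minus 1. All 12 libraries entered 1 limma model of the 4 genotypes (version 3.58.1 in R 4.3.3, trend and robust options), fitted to the 14199 genes that reached an FPKM of 1 in 3 or more libraries and checked on simulated data. The p-values were adjusted by Benjamini-Hochberg within each comparison over these genes, and a gene was called at an adjusted p under 0.05. The study's DESeq2 test could not be run, since it takes read counts. Columns of per-sample values left unused numbered 0. Python 3.11.15 with pandas 2.3.3, numpy 2.4.6 and matplotlib 3.10.9 made tables and figures.

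All 10 members were named. A gene of another list was named if it was called in a mutant and among the 3 of its list with the largest difference there, or where a member's result turns on it. Members and lists were chosen with earlier results of these data known. Positions are those of an Ensembl annotation of WBcel235, which may be of another release than the one the authors used. Alternatives covered the value added to the FPKM, the filter, a fold threshold, scaling, the limma options, pairs of genotypes alone, the replicate number, the library series and each library left out.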

Additional observations from a re-analysis of the deposited data

Results flagged for a closer look

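For *dpy-4*, the difference between *lin-29* mutants and wild-type was 4.68 on the log2 scale in the earlier library series and 7.78 in the later one, and the change between the series, 3.10 (SE 0.54, adjusted p = 0.0185, limma), passed the test of the interaction. In the earlier series it rests on 1 *lin-29* library and 2 wild-type libraries, and in the later series on 2 and 1. The corresponding changes of *dpy-13* (2.74, adjusted p = 0.0551), *rol-6* (3.02, adjusted p = 0.0569), *dpy-5* (2.77, adjusted p = 0.0683) and *sqt-1* (3.56, adjusted p = 0.069) had the same sign and missed the threshold. The changes of *lon-3* (2.62) and *bli-2* (1.85) also had that sign, while those of *dpy-17* (-0.40) and *sqt-3* (-0.18) had the opposite one. The series were divided with the values in view.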

How the results depend on the processing

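Over 25 alternatives, or 24 where *ddx-23* mutants enter, the number of members higher in *lin-29* mutants ran from 5 to 9 (main 7), and from 6 to 9 with 1 library left out, and the number higher in *ddx-23* mutants was 3 under all of them. The 5 was in the later series alone, where *sqt-1*, *rol-6* and *bli-2* did not pass the filter and 13.8% of all genes were higher in *lin-29* mutants. With the series as a term it was 9, where 20.2% of all genes were higher. The number higher in *mab-10* mutants (main 0) was 2 with the library series as a term (*dpy-17* and *sqt-3*) and 1 in the earlier series alone (*dpy-17*), and 0 to 2 with 1 library left out, 2 without wild-type replicate 3 and 1 without *mab-10* replicate 1. The share of all genes higher there (main 1.04%) was 5.48%, 10%, 13.3% and 10.5% in these 4 fits, in that order. The number lower in *ddx-23* mutants (main 0) was 2 with the series as a term and 1 in the earlier series alone, where 4.54% and 7.85% of all genes were lower (main 1.46%). With a replicate block it was 1 (*sqt-3*, adjusted p = 0.0445, limma), against 1.63% of all genes, and the block changed no other member's call against wild-type. Replicate numbers were not taken to pair the samples. Deviations of same-numbered libraries correlated from -0.30 to 0.46 (median 0.048), and 8 of 18 pairs were over 0.1. Those of differently numbered libraries ran from -0.47 to 0.40 (median -0.012), and 6 of 36 pairs were over 0.1. Replicate 1 is of the earlier series in every genotype, so the number is tied to the series. Scaling by the median ratio moved the median difference of all genes from 0.19, 0.14 and 0.094 to 0.029, -0.002 and -0.007, in the order *lin-29*, *mab-10*, *ddx-23*.

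Only differences that were not called changed sign. Against wild-type in *ddx-23* mutants these were *sqt-1* at 0.22 with 0.1 added to the FPKM and -0.81 to 0.38 with 1 library left out, and *rol-6* at -0.022 with median-ratio scaling, -0.19 with quantile normalization, -0.33 in the earlier series and -0.33 to 0.49 with 1 library left out. With 1 library left out, *lon-3* there ran from -0.64 to 0.24 and *bli-2* from -0.88 to 0.16. In *mab-10* mutants *lon-3* was -0.0026 with quantile normalization and -0.040 in the earlier series, where *dpy-4* was 0.19. Between *lin-29* and *mab-10* mutants *dpy-17* was 0.03 in the later series and -0.84 to 0.54, and *sqt-3* -0.31 to 1.26, with 1 library left out. Between *mab-10* and *ddx-23* mutants *sqt-1* was 0.22 in the earlier series and -0.92 to 0.11, and *bli-2* -0.70 to 0.036, with 1 library left out. The causes were not tested, and the depth is unknown, so no limit of detection can be given for *bli-1* and *bli-2*.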

Other observations

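For each tested member, the 3 genes whose log2(FPKM+1) followed it most closely over the 12 libraries were listed by Pearson correlation, as a description over points that share genotype and series. For *dpy-4*, *dpy-5* and *dpy-13* the nearest genes were each other, followed by *H23N18.5* (0.973 to 0.975). The nearest of *sqt-1* were *rol-8* (0.998), *sqt-2* (0.994) and *rol-6* (0.990), and those of *rol-6* were *sqt-2*, *rol-8* and *sqt-1*. For *bli-2* they were *sqt-2* (0.928), *sqt-1* (0.927) and *rol-8* (0.922). For *lon-3* they were *ZK180.6* (0.990), *rol-8* (0.979) and the collagen gene *col-17* (0.977). For *sqt-3* they were *dpy-14* (0.985), *K10D3.4* (0.984) and *W04A8.4* (0.983), and for *dpy-17* they were *T02E9.5* (0.995), *W04A8.4* (0.992) and *C24A8.6* (0.991).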
